A study of Gallus gallus with 60 samples.

Results

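The genes described here are C6 and C8B, which code for components of the terminal complement pathway, CLU, which codes for clusterin, and LYG2, which codes for lysozyme G2, as measured in the cerebrum of laying hens. All rows of the deposited expression table whose first probe set carries 1 of these 4 symbols in the platform annotation were taken, which gave 5 rows of 20398 with values. C6, C8B and CLU have 1 row each and LYG2 has 2. All 5 rows passed the limit set on dim rows (a mean log2 value of 5.08 over all arrays) and were among the 16317 rows tested. The genes were chosen with their difference between the layer lines in these data known, so their values in the lines are given as a description with no test, while group size, which did not enter the choice, was tested.

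RNA from the cerebrum of 60 hens (the right posterior side, according to the labels) was measured on Affymetrix chicken gene arrays, with 1 array for each hen. The methods of the study name posterior samples of both the left and the right side, so the side is not certain for every hen. The hens were Lohmann Selected Leghorn (LSL), a white egg line, and Lohmann Brown (LB), a brown egg line, 30 of each, all kept in small-group housing and sampled at 65 to 68 weeks of age. Of the LSL hens 14 lived in groups of 54 hens and 16 in groups of 36, and of the LB hens 16 lived in groups of 54 and 14 in groups of 36. The lines did not share a compartment and several hens were taken from each compartment, so the p-values, which treat hens as independent, may be too small. Both lines are commercial hybrids, and hens were picked from stressed and unstressed birds, a status that the labels do not give.

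Complement is a cascade of plasma proteins in which C6 joins C5b and C7, and C8, made of the products of C8A, C8B and C8G, then inserts into the target membrane and starts the pore that C9 completes. Most of these proteins are made by the liver, and neurons and glia can make them as well. Clusterin is a secreted chaperone, abundant in astrocytes of the mammalian brain, which binds the terminal complex and keeps it from membranes and which also travels on lipoproteins. Lysozymes of the goose type cleave the peptidoglycan of bacterial cell walls, and LYG2 codes for one of them.

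The arrays matched brain tissue, since SNAP25, a synaptic protein of neurons, AQP4, the water channel of astrocytes, and MBP, a myelin protein, lay at log2 values of at least 11.99, 11.00 and 11.87 in every hen. ALB and FGB, which code for albumin and a fibrinogen chain of hepatocytes, lay between 5.09 and 5.87 and between 4.77 and 5.57. Once the group means were removed, the first principal component (24.5% of the remaining variance) split the arrays into a set of 42 and a set of 18. The split was set at the widest gap along this component. The smaller set held 10 LSL and 8 LB hens, and no label names it. Its hens were those numbered 1 to 6 and 11 to 22 in the sample titles, and what the numbering stands for is not stated. The differences of the 5 rows between the lines are therefore given within both sets as well, and those of other genes only in part. In these tissue samples fewer cells of a type and less RNA per cell cannot be told apart.

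Of the 5 rows, 4 were lower in LSL than in LB and 1 was at the same level. The second row of LYG2 was 2.15-fold lower in LSL, C6 was 1.78-fold lower, CLU 1.19-fold lower and C8B 1.09-fold lower. All 4 lay past the adjusted p threshold of 0.05 in limma, where 22.8% of all tested rows passed, 11.9% as lower in LSL and 10.8% as higher, and 32.9% had an unadjusted p under 0.05. C8B no longer lay past it when hens of consecutive numbers were treated as pairs, and neither C8B nor C6 did within the set of 18 arrays alone. Since the genes were picked from this comparison, nothing is read from that count. The median difference over all tested rows was 0.00264 on the log2 scale.

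**Figure D1:**
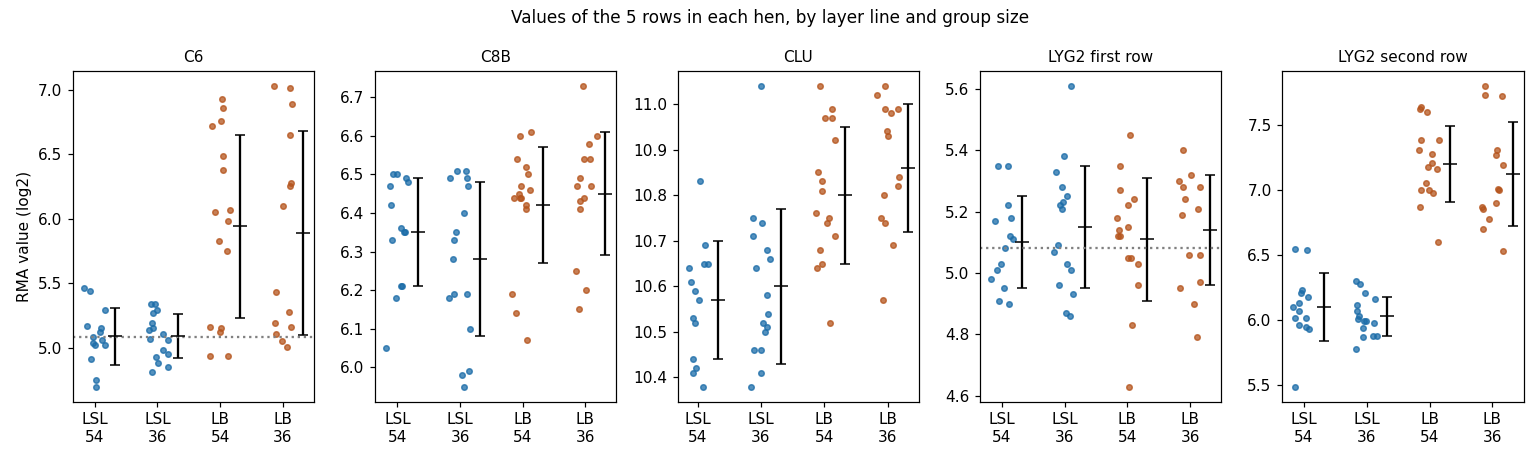
RMA values (log2, vertical axis) of the 5 rows in every hen, 1 point per hen, by layer line and group size (54 or 36 hens). Black bars give the mean and SD of each group, and the dotted line in the panels of C6 and the LYG2 first row marks the limit of 5.08. LB hens spread from 4.94 to 7.03 for C6 while LSL hens lie between 4.70 and 5.46.

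C6, the first of the terminal components to bind the C5b fragment, maps to chromosome Z in the GRCg7b gene table and is read here by a row of 19 probe sets. Its log2 value in LSL hens had a lowest value of 4.70, a median of 5.07 and a highest value of 5.46 in groups of 54, and in groups of 36 these were 4.81, 5.09 and 5.34. In LB hens the lowest, median and highest values were 4.94, 6.01 and 6.93 in groups of 54, and 5.01, 5.76 and 7.03 in groups of 36. The LB hens thus ranged from LSL levels up to a level that no LSL hen reached. The mean was 5.09 ± 0.19 in LSL and 5.92 ± 0.74 in LB (SD, n = 30 each), a difference of -0.83 (standard error 0.14). It was -0.90 on the 42 arrays of the larger set and -0.71 on the 18 of the smaller, and -0.86 in groups of 54 and -0.80 in groups of 36. Since 16 of 30 LSL hens and 4 of 30 LB hens lay below 5.08, the C6 signal of LSL hens was near the dim end of the array, and the size of the difference is uncertain.

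C6 spread widely between LB hens. The SD was 0.19 in LSL, where most hens lay near the limit of 5.08, and 0.74 in LB, a ratio of LB over LSL of 3.84 that ranked 6 from the top among the 16317 tested rows. The dim LSL signal makes this ratio uncertain, and the SD in LB itself ranked 55. Of the 30 LB hens, 18 lay above the highest LSL hen and 12 did not. The 12 lay between 4.94 and 5.43 and the 18 between 5.75 and 7.03, and the gap from 5.43 to 5.75 was the widest between neighbouring LB hens. Hens above the highest LSL hen were found at both group sizes, 11 of 16 in LB groups of 54 and 7 of 14 in LB groups of 36. They were found in both sets of arrays too, 13 of 22 LB hens in the larger and 5 of 8 in the smaller. No other row of the 4 genes had such a spread in LB, with SD ratios of LB over LSL of 0.87 for C8B, 0.99 for CLU, 1.06 for the LYG2 first row and 1.64 for the LYG2 second row.

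The C6 values of LB hens also differed within pairs of hens. A pair stands here for hens numbered in sequence, the odd number first, which share line, group size and set of arrays, and the labels do not say what else they share. In 12 of 15 LB pairs exactly 1 hen lay above the highest LSL hen, in 3 pairs both did, and in 0 pairs neither did. The difference between the hens of an LB pair was at least 0.63, with a median of 1.12 and a highest value of 2.00, against a median of 0.82 over all combinations of LB hens. In LSL pairs the difference had a median of 0.15 and a highest value of 0.71, and the median over all combinations of LSL hens was 0.19. The higher hen had the odd number in 9 of 15 LB pairs. This pattern was noticed in the values, and no test was run on it. For the LYG2 second row the median difference within LB pairs was 0.37, against 0.34 over all combinations of LB hens.

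C8B codes for the beta subunit of C8, maps to chromosome 8 and is read by a row of 14 probe sets. In LSL hens its lowest, median and highest log2 values were 6.05, 6.36 and 6.50 in groups of 54, and 5.95, 6.30 and 6.51 in groups of 36. In LB hens they were 6.07, 6.45 and 6.61 in groups of 54, and 6.15, 6.47 and 6.73 in groups of 36. The lines overlapped widely, with 21 of 30 LB hens no higher than the highest LSL hen. The mean was 6.31 ± 0.18 in LSL and 6.43 ± 0.15 in LB (SD, n = 30 each), a difference of -0.12 (standard error 0.043). The difference was -0.12 on the 42 arrays of the larger set and -0.082 on the 18 of the smaller. In groups of 54 it was -0.066 (standard error 0.061) and in groups of 36 it was -0.18 (standard error 0.061).

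CLU maps to chromosome 3 and is read by a row of 7 probe sets. Its lowest, median and highest log2 values in LSL hens were 10.38, 10.58 and 10.83 in groups of 54, and 10.38, 10.56 and 11.04 in groups of 36. In LB hens they were 10.52, 10.79 and 11.04 in groups of 54, and 10.57, 10.89 and 11.04 in groups of 36. The ranges overlapped, with 1 LSL hen in a group of 36 at 11.04, level with the highest LB hens, but 28 of 30 LB hens lay above the LSL median of 10.57. The mean was 10.58 ± 0.15 in LSL and 10.83 ± 0.15 in LB (SD, n = 30 each), a difference of -0.25 (standard error 0.038). The difference was -0.22 on the 42 arrays of the larger set and -0.31 on the 18 of the smaller, and -0.24 in groups of 54 and -0.27 in groups of 36.

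The 2 rows of LYG2 hold 7 probe sets each and did not behave alike. The GRCg7b table places LYG2 on chromosome 1 beside LYGL, another lysozyme of the goose type, and which of these genes each row reads could not be settled from the platform annotation. For the first row, the lowest, median and highest log2 values in LSL hens were 4.90, 5.09 and 5.35 in groups of 54, and 4.86, 5.15 and 5.61 in groups of 36. In LB hens they were 4.63, 5.13 and 5.45 in groups of 54, and 4.79, 5.20 and 5.40 in groups of 36. The lines covered the same range, and 14 of 30 LSL hens and 12 of 30 LB hens lay below the limit of 5.08. The mean was 5.12 ± 0.18 in LSL and 5.12 ± 0.19 in LB (SD, n = 30 each), with a 95% interval of the difference from -0.10 to 0.093. This interval bounds the difference in measured values only. With so many hens below the limit, a difference in a transcript this dim may not be detectable.

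The second row of LYG2 separated the lines almost fully. In LSL hens its lowest, median and highest log2 values were 5.49, 6.09 and 6.55 in groups of 54, and 5.78, 6.00 and 6.30 in groups of 36. In LB hens they were 6.60, 7.19 and 7.64 in groups of 54, and 6.53, 7.00 and 7.80 in groups of 36. Of the 30 LB hens, 29 lay above the highest LSL hen, at 6.55, and the other one lay at 6.53. Among all tested rows 0.0981% showed no overlap between the lines, and this row missed that by 1 LB hen. The mean was 6.06 ± 0.21 in LSL and 7.16 ± 0.34 in LB (SD, n = 30 each), a difference of -1.10 (standard error 0.072). It was -1.13 on the 42 arrays of the larger set and -1.08 on the 18 of the smaller, and -1.11 in groups of 54 and -1.09 in groups of 36. Rows at least 2-fold lower in LSL past the threshold were 0.141% of those tested and this row had rank 14 from the lowest difference, while C6 had rank 37.

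**Figure D2:**
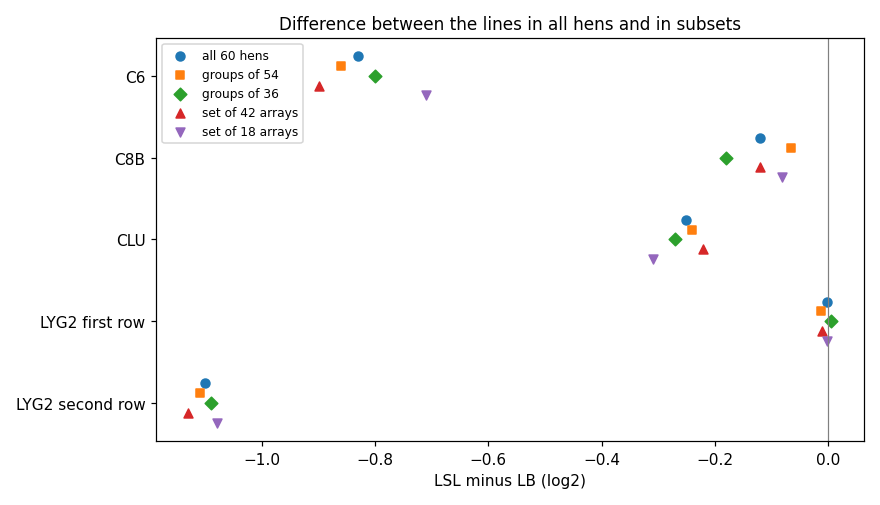
Difference LSL minus LB (log2, horizontal axis) for each of the 5 rows, in all 60 hens, at each group size and within each set of arrays. For C6, CLU and the LYG2 second row every subset lies well below 0, for C8B the subsets run from -0.18 to -0.066, and the LYG2 first row stays at 0.

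Group size did not move any of the 5 rows past the threshold. In all hens, groups of 54 against groups of 36, C6 averaged 5.54 ± 0.69 and 5.46 ± 0.68 (SD, n = 30 each), a difference of 0.084 with a 95% interval from -0.26 to 0.43 (limma, adjusted p = 0.963). The LYG2 second row averaged 6.69 ± 0.62 in groups of 54 and 6.54 ± 0.62 in groups of 36, a difference of 0.15 with an interval from -0.16 to 0.46 (limma, adjusted p = 0.917). Both layer lines enter each of these means, with 16 LB hens in groups of 54 and 14 in groups of 36. The spread behind these intervals therefore takes in the difference between the lines. Within a line, the 95% interval for the LYG2 second row ran from -0.14 to 0.27 in LSL and from -0.12 to 0.29 in LB. For C6 it ran from -0.39 to 0.39 in LSL and from -0.33 to 0.45 in LB. With layer line as a covariate the difference was 0.028 for C6 and 0.077 for the LYG2 second row (limma, adjusted p of 0.984 and 0.895). For C8B, CLU and the LYG2 first row the differences were 0.03, -0.03 and -0.038, and the intervals reached at most 1.10-fold in either direction (limma, adjusted p of 0.944, 0.951 and 0.931). Over all rows 0% passed for group size, 0 of 16317 in limma, and 888 (5.44%) had an unadjusted p under 0.05.

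Within LSL the difference between groups of 54 and groups of 36 was -0.00073 for C6, 0.077 for C8B, -0.032 for CLU, -0.048 for the LYG2 first row and 0.067 for the LYG2 second row. Within LB it was 0.057, -0.032, -0.062, -0.029 and 0.087 in the same order of rows. The interaction, which asks whether the difference between the lines depends on group size, passed the threshold for none of the 5 rows (limma, adjusted p = 1 for each). Its 95% interval reached 1.53-fold for C6, 1.21-fold for C8B, 1.14-fold for CLU, 1.16-fold for the LYG2 first row and 1.24-fold for the LYG2 second row. Over all rows 0 of 16317 passed for the interaction and 802 (4.92%) had an unadjusted p under 0.05.

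**Figure D3:**
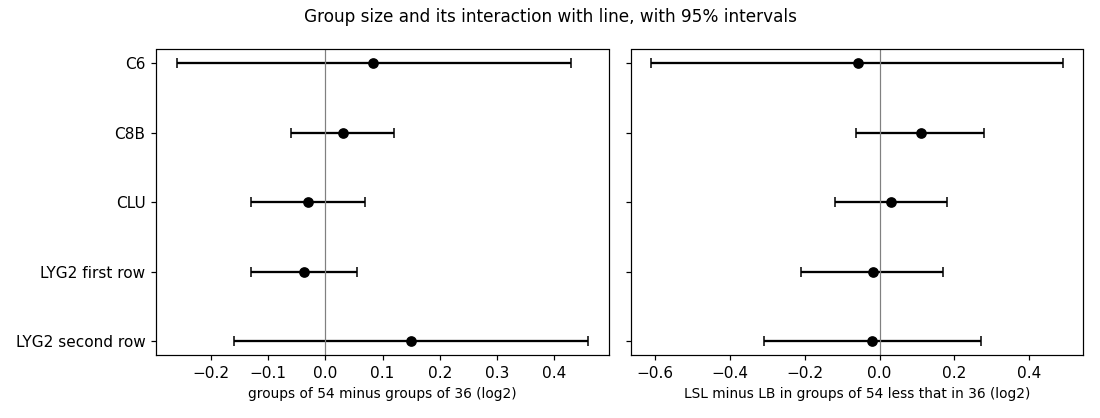
Left, difference between groups of 54 and groups of 36 hens (log2), and right, the LSL minus LB difference in groups of 54 less that in groups of 36 (log2), for the 5 rows, as estimates with 95% intervals. Every interval includes 0, and those of C6 and the LYG2 second row are the widest in the left panel.

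The other complement genes were tested between the lines. Of 19 further complement genes with a tested row, 2 were higher in LSL, 1 was lower and 16 did not pass the threshold, with a median difference of 0.031. Of all genes, each taken by its brightest row, 10.9% were higher and 12.4% lower, so no result about complement is read from these counts. The partners of C8B in C8 were at 5.42 ± 0.15 in LSL and 5.38 ± 0.16 in LB for C8A, a difference of 0.04 (limma, adjusted p = 0.544), and at 5.84 ± 0.13 in LSL and 5.87 ± 0.16 in LB for C8G, a difference of -0.026 (limma, adjusted p = 0.695; SD, n = 30 each). No row carried a symbol for C5, C7, C9, C3 or the factors of the alternative pathway, so these were not analysed here.

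Among the genes of complement activation, COLEC10, a collectin that can start the lectin pathway, was higher in LSL, at 5.76 ± 0.28 in LSL and 5.57 ± 0.25 in LB (SD, n = 30 each; difference 0.19, limma, adjusted p = 0.0321). C1QA, a chain of the recognition molecule C1q, C1R, MASP2, MBL2, COLEC11, COLEC12 and C4 did not pass, with differences from -0.019 for MBL2 to 0.12 for C4. C4 is read by 10 tested rows of a single probe set each, which ran from -0.21 to 0.12. Among the regulators, SUSD4, a membrane protein that inhibits complement, fell to 9.46 ± 0.07 in LSL, against 9.56 ± 0.10 in LB (SD, n = 30 each; difference -0.094, limma, adjusted p = 0.00258). VTN, which codes for vitronectin and like clusterin keeps the terminal complex off membranes, had a difference of -0.012 (limma, adjusted p = 0.883). CD59, which blocks the pore on host cells, had a difference of 0.20 (limma, adjusted p = 0.0581). Among receptors, a row with the platform symbol CD93, which the GRCg7b table lists as CD248, was higher in LSL. It was at 8.65 ± 0.25 in LSL and 8.47 ± 0.23 in LB (SD, n = 30 each; difference 0.17, limma, adjusted p = 0.0296). This row is in the list by its platform symbol alone and is 1 of the 2 genes counted above as higher. Which gene it reads was not determined. When hen pairs entered limma as a random block, COLEC10 and CD248 no longer passed (adjusted p of 0.101 and 0.0526). COLEC10 did not pass within the set of 42 arrays either (limma, adjusted p = 0.0931), and within the set of 18 arrays SUSD4 had a difference of -0.0093.

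**Figure D4:**
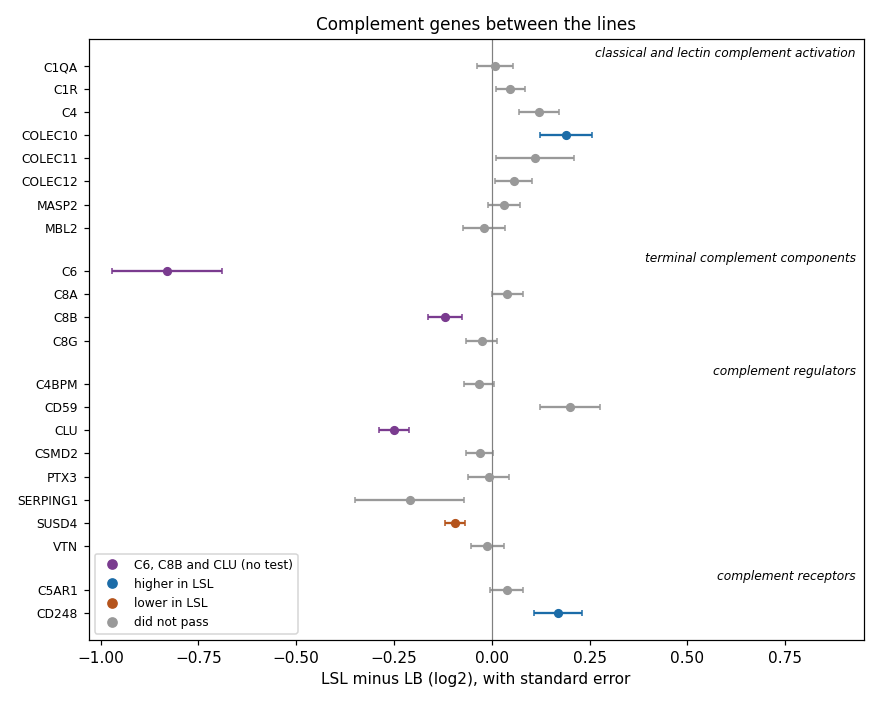
LSL minus LB difference (log2, horizontal axis) of complement genes, with standard errors, by role in the cascade. C6 at -0.83 lies apart from C8A and C8G at 0.04 and -0.026, and the genes other than C6 and CLU lie between -0.21 and 0.20. CD248 is shown by virtue of its platform symbol CD93.

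Clusterin also belongs to the proteins carried on lipoproteins. Over all genes, each by its brightest row, 12.4% were lower in LSL and 10.9% higher. Of 11 further genes of apolipoproteins, lipid transfer and receptors of clusterin, 1 was lower in LSL, 0 were higher and 10 did not pass. The one that fell was PLTP, which codes for phospholipid transfer protein, at 8.51 ± 0.28 in LSL and 8.94 ± 0.19 in LB (SD, n = 30 each; difference -0.43, limma, adjusted p = 6.64e-08). LRP2 and LRP8, receptors that take up clusterin, had differences of -0.10 and 0.086 (limma, adjusted p of 0.151 and 0.115), and TREM2, a microglial receptor that binds it, had 0.062 in its brightest row (limma, adjusted p = 0.5), while its other row, at 0.10, passed as higher in LSL. Of 4 further antibacterial genes beside LYG2, the beta-defensin genes AvBD1, AvBD13, GAL9 and GAL10, none passed, with differences from -0.035 to 0.064.

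Markers of cells that could supply these transcripts were tested between the lines. Their counts are to be read against all genes by their brightest row, of which 10.9% were higher in LSL and 12.4% lower. None of the markers of heterophils, the granulocytes of birds, AvBD1 and S100A12, or of hepatocytes, ALB and FGB, passed. Nor did any of 6 markers of erythrocytes, 2 of thrombocytes, 6 of choroid plexus and ependyma, 4 of endothelium or 3 of meninges and fibroblasts. The mean level over the heterophil markers ran from 5.27 to 5.83 in LSL hens and from 5.21 to 5.81 in LB hens, and that over the hepatocyte markers from 5.10 to 5.56 in LSL and from 5.02 to 5.59 in LB. Of 7 markers of microglia and macrophages, each by its brightest row, 1 was higher in LSL, LY86, with a difference of 0.23 (limma, adjusted p = 0.0223, and 0.0691 when hen pairs entered as a random block). TREM2, on the same list, did not pass in its brightest row, at 0.062, while its other row, at 0.10, passed as higher. The mean over the microglia list ran from 7.05 to 7.59 in LSL and from 6.95 to 7.46 in LB. Of 6 astrocyte markers 1 was lower in LSL, SPARCL1, whose brightest row had a difference of -0.74 (limma, adjusted p = 2.08e-06) and whose other row had -1.35. The other astrocyte markers had differences from -0.0045 for GJA1 to 0.076 for SOX9, with AQP4 at -0.0017. The mean over the list ran from 8.61 to 9.06 in LSL and from 8.74 to 9.21 in LB, a shift that lay mostly in SPARCL1. Of 7 lymphocyte markers 1 was higher in LSL, JCHAIN, the joining chain of immunoglobulins in plasma cells, with a difference of 1.44 (limma, adjusted p = 0.000253). The other lymphocyte markers had differences from -0.018 for CD247 to 0.11 for CD3D. The mean over the list ran from 5.76 to 6.68 in LSL and from 5.73 to 6.27 in LB, a shift that lay mostly in JCHAIN. Of 7 neuron markers MAP2 was higher in LSL, with 0.14, and GAD2 lower, with -0.18 (limma, adjusted p of 1.09e-06 and 0.0395), and the list ran from 10.44 to 10.61 in LSL and from 10.42 to 10.61 in LB. Of 3 oligodendrocyte markers MBP was higher in LSL, with 0.10 (limma, adjusted p = 0.0198), and the list ran from 8.80 to 9.46 in LSL and from 8.77 to 9.51 in LB. When hen pairs entered as a random block, GAD2 and MBP did not pass (adjusted p of 0.0712 and 0.0697). Within the set of 18 arrays LY86, SPARCL1, GAD2 and MBP did not pass (limma, adjusted p of 0.221, 0.108, 0.581 and 0.212). MBP did not pass within the set of 42 arrays either (limma, adjusted p = 0.113), while JCHAIN and MAP2 passed within both sets. The part of these cells in the values of the 5 rows was not tested.

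To see which genes varied between hens as the rows did, each row was correlated with all others after the mean of each of the 4 groups was removed. This is a description over 60 hens, some of which shared a compartment, and in each hen all rows come from the same array. C6 was most like PLA2G1B, which codes for a secreted phospholipase A2 (Pearson r = 0.67, Spearman rho = 0.70), CD36, a scavenger receptor for lipids (0.61 and 0.62), and PDCD1LG2, a ligand of the immune checkpoint receptor PD-1 (0.54 and 0.43). MTBP and EVL followed, with r of 0.44 and 0.42. Without the hens farthest from the median of C6, r was 0.63 for PLA2G1B, 0.59 for CD36 and 0.49 for PDCD1LG2. Within the lines r was 0.52 in LSL and 0.75 in LB for PLA2G1B, 0.20 in LSL and 0.67 in LB for CD36, and 0.35 in LSL and 0.61 in LB for PDCD1LG2. With the array set removed as well, r was 0.68, 0.61 and 0.54 for these 3 genes, and 0.0674% of all other tested rows had r above 0.5 with C6. A row without a gene symbol had the highest r with C6, at 0.80.

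Of the 5 named genes most like C6, PLA2G1B, CD36, PDCD1LG2 and MTBP were also lower in LSL, and EVL did not pass. Of all tested rows 11.9% passed as lower and 10.8% as higher. C6 was picked for its difference between the lines and these genes for their likeness to C6, so nothing is read from this count. PLA2G1B was at 6.44 ± 0.43 in LSL and 6.91 ± 0.65 in LB, a difference of -0.46 (limma, adjusted p = 0.00956). CD36 was at 4.89 ± 0.23 in LSL and 5.55 ± 0.54 in LB, a difference of -0.66 (limma, adjusted p = 8.46e-07). For CD36, 26 of 30 LSL hens and 6 of 30 LB hens lay below 5.08, so the size of this difference is uncertain. The LSL mean lay below that limit too, so the row passed the filter on dim rows through its LB hens. With no filter on dim rows the adjusted p was 1.06e-06 (limma). PDCD1LG2 was at 5.66 ± 0.17 in LSL and 5.85 ± 0.25 in LB, a difference of -0.19 (limma, adjusted p = 0.0066; SD, n = 30 each). MTBP had a difference of -0.15 and EVL one of -0.031 (limma, adjusted p of 0.027 and 0.589). When hen pairs entered as a random block, PLA2G1B and MTBP did not pass (limma, adjusted p of 0.0508 and 0.117). Within the set of 18 arrays PLA2G1B, PDCD1LG2 and MTBP did not pass (limma, adjusted p of 0.403, 0.559 and 0.334). MTBP did not pass within the set of 42 arrays either (limma, adjusted p = 0.0754). The genes were picked for their likeness to C6 in these hens, so agreement within pairs restates that choice. Within the 15 LB pairs, the hen that was higher in C6 was also higher in PLA2G1B in 14, in CD36 in 14, in EVL in 14, in PDCD1LG2 in 11 and in MTBP in 10.

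**Figure D5:**
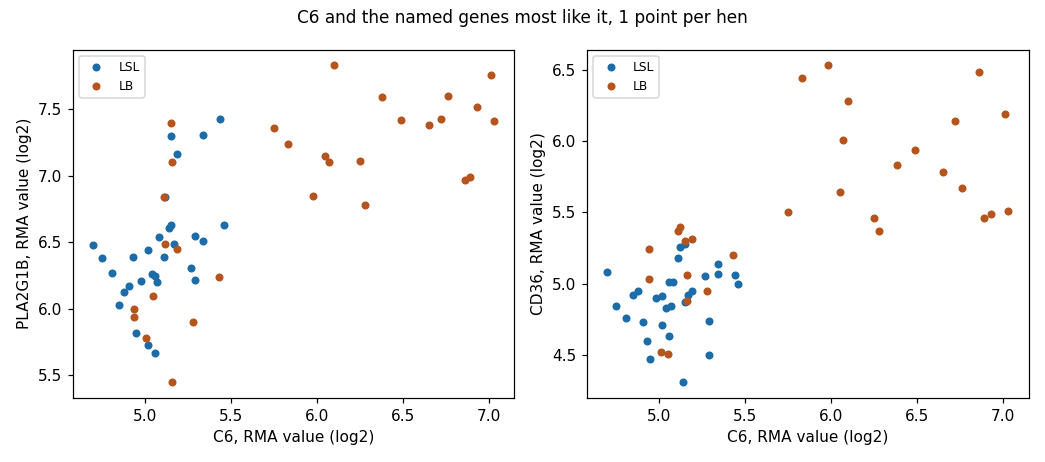
RMA value (log2) of PLA2G1B (left) and CD36 (right) against that of C6, 1 point per hen, by layer line. LSL hens all lie below a C6 value of 5.5, while the LB hens extend to 7.03 with a gap between 5.43 and 5.75.

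Among rows with a gene symbol, the other rows were most like different genes. The LYG2 second row was most like MGAT4C, a glycosyltransferase gene (r = 0.67), STK32B (0.64), RIT2, a neuronal small GTPase (0.63), PTGFR, the receptor of prostaglandin F2 alpha (0.62), and SH3BP2 (0.61). None of these 5 genes passed between the lines, with differences from -0.15 to 0.12. For each of them r was lower within LSL than within LB, at 0.23 and 0.80 for STK32B and 0.38 and 0.78 for RIT2. With unnamed rows counted too, the highest r with the LYG2 second row was 0.69. CLU was most like SNCB, which codes for beta-synuclein (r = 0.66), RPLP0, a ribosomal protein gene (0.62), BCL2L1, an inhibitor of apoptosis (0.61), JDP2 (0.61) and BAP1 (0.58). BCL2L1 was also lower in LSL, at 8.52 ± 0.14 in LSL and 8.77 ± 0.14 in LB (SD, n = 30 each; difference -0.25, limma, adjusted p = 3.59e-07). SNCB, RPLP0, JDP2 and BAP1 did not pass between the lines, where 11.9% of all tested rows passed as lower. C8B was most like ATM, CWC27, TM7SF3, DUS3L and MIR1728, with r from 0.66 to 0.69, and these fell to between 0.42 and 0.51 once the array set was removed. The share of other rows with r above 0.5 to C8B was 7.65% before and 0.0797% after that step, so the likeness of C8B moved with the array sets. The LYG2 first row was most like ADAM32, SEL1L3, CCDC69, ANOS1 and GPHB5, with r from 0.44 to 0.50, while with unnamed rows counted too its highest r was 0.56. Of the genes most like C8B only CWC27 passed between the lines, and of those most like the LYG2 first row only SEL1L3. Both were lower in LSL, with differences of -0.21 and -0.12 (limma, adjusted p of 0.0149 and 0.00444). Neither passed within the set of 18 arrays (limma, adjusted p of 0.593 and 0.513).

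Between the rows of the 4 genes themselves, CLU ran against the LYG2 second row over hens (r = -0.51, and -0.48 with the array set removed) and less so against the LYG2 first row (-0.37 and -0.33). The rows of LYG2 had r = 0.28. C6 had r = -0.01 with C8B, -0.12 with CLU and -0.17 with the LYG2 second row.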

How the data were processed

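Cerebrum RNA of each hen was labelled and hybridised to an Affymetrix chicken gene array. The authors ran RMA, which includes quantile normalization, on the scans. The deposited log2 values come with 20399 rows in one table and 20396 in a second that held the same values. The depth of an array is not counted, and the number of arrays limits the precision. Rows are read here as sets of probe sets, named through the platform annotation of their first probe set, with symbols updated from the GRCg7b gene table. The genome build of the files is not given in the sources used here, so no coordinates are given. Rows with a mean below the 20th percentile were left out. In R 4.3.3, limma 3.58.1 (lmFit, eBayes) tested layer line, group size and the interaction, each p being adjusted by Benjamini-Hochberg for 16317 rows, after a check on simulated data. Correlations were computed in Python with numpy. Lists were read by 1 row per gene, the brightest. The 4 genes and all lists were chosen with earlier results of these data known. Named genes were the 5 rows, up to 4 genes per direction and pathway list past the threshold, other measured complement genes, and the 5 named rows most like each row. Alternatives were other filters, array sets and hen pairs as blocks, recentred arrays, the other factor as a covariate, the methods' t-test and each array set alone. Hens per line and group size were 14 to 16.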

Additional observations from a re-analysis of the deposited data

How the results depend on the processing

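Over the alternatives tried, 129 of 130 values of the 5 rows kept their direction. Other filters, the t-test and hen pairs as a random block leave a difference unchanged by design, so part of this count was fixed in advance. The LYG2 first row lay at -0.00092 between the lines, where a direction means little. The difference of C8B between groups of 54 and groups of 36 turned to -0.044 within the set of 42 arrays. For layer line, CLU and the LYG2 second row lay past the threshold under all 11 settings. C6 did so under 10 of 11, missing it within the set of 18 arrays, and C8B under 9 of 11, missing it there and when hen pairs entered as a random block. The genes were picked from this comparison and the settings refit the same hens, so these counts describe the settings and give no support to the differences. Adjusted p of the 5 rows ran from 0.849 to 1.0 for group size and from 0.771 to 1.0 for the interaction. For the 23 other named genes past the threshold for layer line, 200 of 230 values kept direction and call, and 30 no longer passed, most of them within the set of 18 arrays. Within that set 1184 rows passed for layer line and 2 for group size, with fewer hens in the fit. Of the 25 genes most like the 5 rows, 12 were named again with the array set removed and 12 with Spearman correlation. The cause was not tested. Hen pairs lie within a group, and no replicate number joins hens across groups, so no pairing between groups was fitted. C6 in LSL and the LYG2 first row lie near the dim end of the array, and single probe sets within a row were not looked at.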

Other observations

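Genes beside the 4 genes on their chromosomes, taken from the order of protein-coding genes in the GRCg7b table with 10 on each side, are described here between the lines. Counts of neighbours past the threshold are to be read against all genes by their brightest row, of which 10.9% passed as higher and 12.4% as lower. Of 11 measured neighbours of C6, 2 were higher in LSL and 1 was lower. PLCXD3, the next gene after C6, had a difference of 0.18 and FBXO4 one of 0.24, while RICTOR, a subunit of the mTORC2 kinase complex, had -0.091 (limma, adjusted p of 0.0241, 0.000133 and 0.00857). When hen pairs entered as a random block, PLCXD3 did not pass (adjusted p = 0.0771), and its difference was 0.092 on the 42 arrays of the larger set and 0.39 on the 18 of the smaller, past the threshold in neither. Of 6 measured neighbours of C8B none passed, with C8A next to it. Of 6 measured neighbours of CLU 1 was lower, OTOF, with -0.21 (limma, adjusted p = 0.0056). Of 5 measured neighbours of LYG2 2 were lower, EIF5B, a translation initiation factor gene, with -0.13 and COA5 with -0.15 (limma, adjusted p of 0.000136 and 0.00805). Within the set of 18 arrays FBXO4, RICTOR, OTOF, EIF5B and COA5 did not pass (limma, adjusted p of 0.316, 0.0797, 0.524, 0.134 and 0.387). Each of them passed within the set of 42 arrays.

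Perforin and astrotactin share the pore-forming fold of C6 and C8B. PRF1, the perforin gene of cytotoxic cells, had a difference of 0.10 and ASTN2, a neuronal adhesion gene, 0.11 (limma, adjusted p of 0.0675 and 0.0522), so neither passed.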
